A study of Mus musculus with 4 samples.

Results

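Fabp1, Fabp4 and Fabp5 are 3 of the 13838 genes in the deposited UMI count matrix of this study, and they were chosen by name as the most abundant members of the fatty acid binding family there. Their levels were read in each of the 17 refined clusters of the authors' annotation and in each of the 4 libraries. Bronchoalveolar lavage, which rinses out the cells lying free in the airspaces, was done in C57BL/6 mice. Each group is 1 library made from the pooled cells of 7 mice. In the HDM+APM group, mice breathed aerosolized Afghanistan particulate matter (APM) (5 mg/m3, 6 hours daily, 12 days) and later received 10 µg of house dust mite (HDM), an inhaled allergen, through the nose. The HDM group breathed filtered air and received the same HDM dose. The APM group breathed the dust and received PBS. The control group breathed filtered air and received PBS. All groups, control included, received the nasal instillations, and HDM was suspended in PBS. A unique molecular identifier (UMI) counts each captured transcript once. The kit reads the 3' end of a transcript, so UMIs of different genes need no scaling by gene length.

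There were 1123 cells in the HDM+APM library, 994 in HDM, 3890 in APM and 3918 in control. The median cell held 4780 UMIs in HDM+APM, 1380 in HDM, 2637 in APM and 3417 in control. The HDM library was the shallowest, with 29.4% of its cells below 1000 UMIs, against 5.88% in HDM+APM, 4.09% in APM and 1.25% in control. Because each group is 1 pooled library, there is no replicate, no difference below was tested and no p-value is given. Every interval is a 95% interval and covers counting error only. A level is the number of UMIs of the gene per 1000000 UMIs summed over the cells of a cluster (CPM), and a positive cell holds at least 1 UMI of the gene. Cluster names are those of the deposited annotation. All 15 alveolar macrophage markers examined had UMIs in each of the 10 macrophage clusters, with summed levels of 12773 to 31849 CPM. All 15 also had UMIs in T cells, B cells 2, dendritic cells and granulocyte-like cells, with sums of 1373, 1145, 1593 and 4383 CPM. The cells the authors named classical monocyte held 7096 CPM of 9 monocyte markers. They also held 8829 CPM of 12 monocyte-derived or interstitial macrophage markers, none at 0, against 3015 CPM in Macrophage 8. In the same cells, 10 markers of cavity macrophages summed to 6730 CPM and the alveolar macrophage markers to 12447 CPM. The last sum does not hold marker by marker. Krt79 and Cidec of that list stood at 6.10 and 1.83 CPM in these cells, against 83.0 and 48.8 CPM in Macrophage 9. The other markers of the list are not given singly. The cluster named epithelial held 142027 CPM of epithelial markers beside 416303 CPM of red blood cell markers. A total of 42 cell barcodes occurred in a pair of libraries, 16 of them in APM and control.

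Fatty acid binding proteins are small cytosolic carriers that bind long-chain fatty acids in a barrel-shaped pocket and move them between membranes, lipid droplets, mitochondria and the nucleus. Alveolar macrophages take up and break down surfactant lipid, and their identity depends on the nuclear receptor PPARγ, a fatty acid sensor. FABP1 is the liver type, abundant in hepatocytes and intestinal epithelium. FABP4 is the adipocyte type, also made by macrophages, and its gene is a classic PPARγ target. FABP5 is the epidermal type, made by keratinocytes, macrophages and many other cells, and it can carry ligands to PPARδ in the nucleus. In the GENCODE vM21 annotation of mm10, Fabp1 (ENSMUSG00000054422.7) lies at chr6:71199827-71205023 on the plus strand. Fabp4 (ENSMUSG00000062515.3) lies at chr3:10204088-10208576 on the minus strand, and Fabp5 (ENSMUSG00000027533.10) at chr3:10012548-10016607 on the plus strand. Each is protein-coding with 4 exons in its first listed transcript, and none overlaps another annotated gene. Pmp2, Fabp9 and Fabp12, further family members, lie in the same stretch of chromosome 3. A processed pseudogene of Fabp5, Fabp5l2, is annotated elsewhere, and how the authors' counting treated reads shared with it is not stated in the sources used here.

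RefSeq's promoter table (build GRCm38.p6) held 1 of the 3 genes, Fabp1. Its sequence is shown because Fabp1 followed a different order over the macrophage clusters from Fabp4 and Fabp5. The 198 bases before the gene's annotated starts, chr6:71199629-71199826 on the plus strand, read 5' to 3' as follows, with the letters of a DR1 match in capitals.
Fabp1: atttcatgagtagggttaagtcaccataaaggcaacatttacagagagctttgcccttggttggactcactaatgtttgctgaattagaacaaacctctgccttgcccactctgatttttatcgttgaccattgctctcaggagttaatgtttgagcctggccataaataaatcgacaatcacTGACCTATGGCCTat
DR1 is a direct repeat of a nuclear receptor half-site with 1 base between the copies, the arrangement that PPAR and RXR dimers bind. The letters searched, on both strands, were TGACCT, then any 1 base, then TGNCCT. They lie 67 to 55 bases before the RefSeq start, and 20 of 32851 promoters (0.0609%) hold them in the same window. The match describes these letters and says nothing about whether a receptor binds there in these cells. The window was set by the starts of Fabp1, and Fabp4 and Fabp5 could not be searched. The share therefore does not set Fabp1 apart from them.

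Over whole libraries, Fabp1 stood at 5.39 CPM in HDM+APM, 28.6 in HDM, 419 in APM and 218 in control. Fabp4 stood at 524.5 CPM in HDM+APM, 243 in HDM, 568 in APM and 863 in control. Fabp5 stood at 442 CPM in HDM+APM, 1109 in HDM, 1684 in APM and 2953 in control. Fabp4 and Fabp5 were highest in control, while Fabp1 was highest in APM and lowest in HDM+APM, where the whole library held 28 Fabp1 UMIs. In such sums fewer cells of a type and less RNA per cell cannot be told apart, so the levels below are given within clusters. Macrophage clusters held 96.4, 92.7, 99.5 and 99.9% of the Fabp1 UMIs of the HDM+APM, HDM, APM and control libraries. They held 14.2% of the Fabp4 UMIs of HDM+APM, against 92.5% in HDM, 99.7% in APM and 99.9% in control, and 57.9% of the Fabp5 UMIs of HDM+APM, against 70.1, 99.2 and 99.8%. Most of the remaining Fabp4 of HDM+APM, 79.7% of that library's UMIs of the gene, lay in the cells named classical monocyte.

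Fabp1, the liver-type carrier, was highest in Macrophages 6 and 4, at 667 CPM (624 to 712) and 653 CPM (624 to 683) with the libraries pooled. These neighbours did not differ beyond their intervals. Macrophages 5, 10, 1 and 7 followed at 380, 378, 367 and 366 CPM, again with overlapping intervals. Macrophages 2, 9, 3 and 8 formed the low end of the macrophages at 118, 99.3, 88.2 and 63.0 CPM. In the APM library, Fabp1 stood at 662 CPM in Macrophage 6, 656 in Macrophage 4, 487 in Macrophage 5, 442 in Macrophage 7, 411 in Macrophage 10 and 321 in Macrophage 1. In the same library it stood at 156 CPM in Macrophage 8, 119 in Macrophage 2, 99.7 in Macrophage 3 and 72.0 in Macrophage 9. The control library gave a like order, from 772 CPM in Macrophage 6 (42 cells) and 524 CPM in Macrophage 4 (21 cells) to 86.9 CPM in Macrophage 3.

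Outside the macrophages, Fabp1 was at or near 0 in the cells named classical monocyte and in B cells. Of the 308 cells named classical monocyte, with a median of 5270 UMIs, 0 were positive for Fabp1, with a 95% limit of 1.19% of cells and 2.25 CPM. That limit is on cells with a UMI, not on cells that express the gene. B cells 2 of HDM+APM held 1 UMI over 404 cells. In the APM library, Fabp1 had UMIs in other cell types too, at 95.9 CPM in T cells (35.2 to 209, 52 cells), 74.8 CPM in dendritic cells (27.4 to 163, 23 cells) and 59.0 CPM in the epithelial cluster (27.0 to 112, 68 cells). Cells with at least 1000 UMIs were thinned to that number. Of these, 9.09% of 33 APM T cells (1.92 to 24.3%), 4.35% of 23 dendritic cells (0.11 to 21.9%) and 9.68% of 31 epithelial cells (2.04 to 25.8%) were positive for Fabp1. The shares in Macrophages 2, 3, 8 and 9 of that library were 9.83, 10.1, 10.6 and 11.3%, inside all 3 of these intervals, so a difference from the other cell types was not detectable in them. Thinned shares of 32.3 to 39.3% in Macrophages 4, 5, 6 and 7 lay above those intervals, while those of Macrophages 1 and 10, 24.5 and 30.8%, had intervals that overlapped them. The part of free RNA in these values was not tested.

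Fabp4, the adipocyte-type carrier, had its highest level in Macrophage 3, at 1504 CPM (1475 to 1535), where 92.7% of cells were positive. The cells named classical monocyte came next at 1325 CPM (1270.1 to 1382) with 94.8% positive, the highest share of all clusters. Macrophage 2 stood at 996 CPM, and each of these 3 clusters differed from the next beyond the intervals. Macrophages 5, 8, 7, 1 and 9 stood at 558, 468, 392, 353 and 322 CPM. Macrophages 4, 6 and 10 were lowest among the macrophages at 273, 266 and 238 CPM, without separation beyond their intervals. With the libraries pooled, the clusters highest in Fabp1 were thus among the lowest in Fabp4. In control, Macrophage 4 held 118 CPM of Fabp4 (47.5 to 244, 21 cells) and Macrophage 6 held 400 CPM (266 to 579, 42 cells). The latter interval held the control levels of Macrophages 1, 8, 9 and 7, at 348, 356, 391 and 416 CPM. Granulocyte-like cells, dendritic cells, B cells, T cells and the epithelial cluster held 132 to 35.3 CPM.

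The order of Fabp4 held in both large libraries at its upper end. In APM, Macrophage 3 stood at 1536 CPM, Macrophage 2 at 1105, Macrophage 8 at 559 and Macrophage 5 at 549.8. In control, Macrophage 3 stood at 1498 CPM, Macrophage 2 at 899, Macrophage 5 at 559.6 and Macrophage 7 at 416. Macrophage 9 of APM was the lowest macrophage cluster of that library, at 231 CPM (177 to 297). Its interval overlapped that of the APM T cells, 112 CPM (45.0 to 230), and lay above those of the dendritic cells, 37.4 CPM (7.71 to 109), and the epithelial cluster, 39.3 CPM (14.4 to 85.6).

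Fabp5, the epidermal-type carrier, was the most abundant of the 3 in 9 of 10 macrophage clusters, and in Macrophage 6 its interval overlapped that of Fabp1. Macrophage 3 stood at 4725 CPM (4672 to 4778) and Macrophage 2 at 3174 CPM (3116 to 3232), with 99.7 and 98.1% of cells positive. Dendritic cells came next at 2624 CPM (2441 to 2818), above the other 8 macrophage clusters. Macrophages 5 and 8 stood at 2055 and 1609 CPM, and Macrophages 1, 7 and 9 at 1342, 1263 and 1163 CPM. Macrophages 4, 6 and 10 were again lowest, at 874, 632 and 545 CPM. The cells named classical monocyte held 426 CPM, below every macrophage cluster but with an interval that overlapped that of Macrophage 10, and T cells held 115 CPM.

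Dendritic cells differed between the libraries in which they could be read. They held 3769 CPM of Fabp5 in HDM (3456 to 4103, 38 cells) and 972 CPM in APM (768 to 1213, 23 cells). In HDM they were 3.82% of the cells and held 25.02% of the Fabp5 UMIs. Their summed alveolar macrophage markers stood at 891 CPM in HDM and 2505 CPM in APM, and the part of this in the Fabp5 difference was not tested. Of 8 dendritic cell markers, Xcr1 and Clec9a, which mark a cross-presenting lineage of these cells, had no UMI in either.

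**Figure D1:**
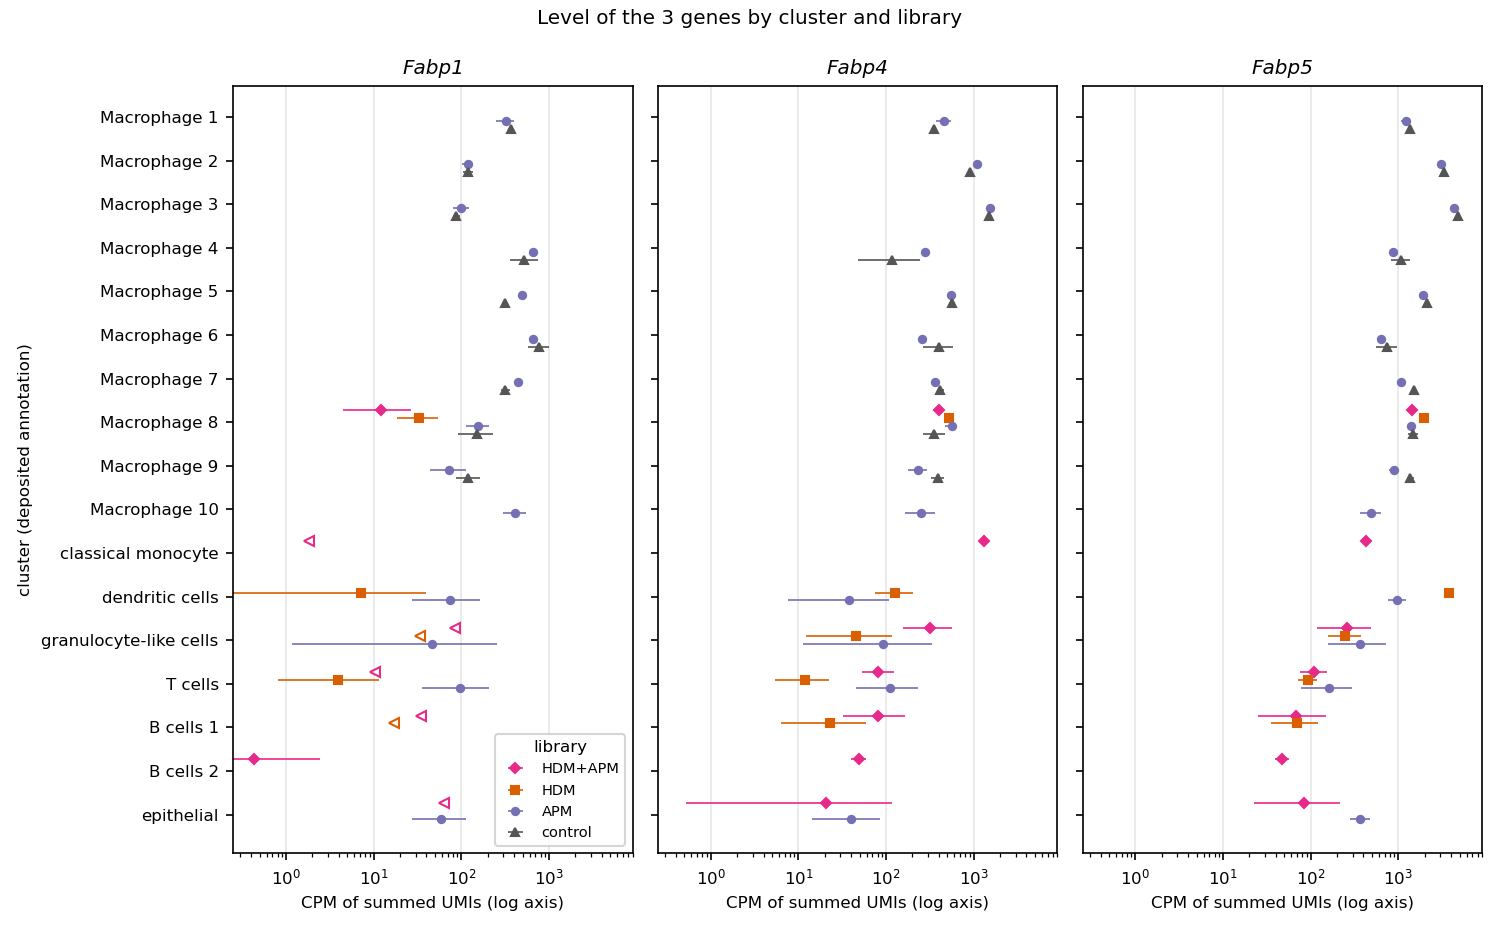
Levels of Fabp1, Fabp4 and Fabp5 (CPM of summed UMIs, log axis) in every cluster of at least 20 cells, by library, with 95% counting intervals; open triangles mark sets with 0 UMIs, drawn at the level of 3 counts. Fabp1 peaks in Macrophages 4 and 6, Fabp4 and Fabp5 in Macrophages 2 and 3, and the cells named classical monocyte hold 1325 CPM of Fabp4 with no Fabp1 UMI.

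Within the macrophages, Fabp4 and Fabp5 shared an order that Fabp1 did not. Over the 10 macrophage clusters, Pearson's r of log2(CPM + 10) was 0.97 between Fabp4 and Fabp5, -0.62 between Fabp1 and Fabp4 and -0.65 between Fabp1 and Fabp5. Within the APM library alone the same values were 0.96, -0.50 and -0.55, and within control, over 9 clusters, 0.82, -0.65 and -0.78. Over all 17 clusters, which differ mainly in being macrophages or not, they were 0.76, 0.41 and 0.58. These values describe clusters that share libraries and were built from the same cells, and no test is attached to them. Over the 10 macrophage clusters the logs of Fabp4 and Fabp5 also moved with median depth, with r of 0.45 and 0.47, against -0.15 for Fabp1.

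The balance between the genes differed between cell types. In 16 macrophage sets of at least 50 cells in APM and control, there were 243 to 412 Fabp5 UMIs per 100 Fabp4 UMIs. Fabp1 ranged over the same sets from 5.80 to 256 UMIs per 100 of Fabp4. Smaller macrophage sets of these libraries lay outside the Fabp5 range. Macrophage 4 of control held 900 Fabp5 per 100 Fabp4 (412 to 2330, 21 cells), from 63 Fabp5 and 7 Fabp4 UMIs. Macrophage 6 of control held 186 (115 to 305, 42 cells). Macrophage 10 of APM held 193 (120 to 316, 39 cells). The cells named classical monocyte held 2173 Fabp4 and 699 Fabp5 UMIs, or 32.2 Fabp5 per 100 Fabp4 (29.5 to 35.05), against 344 in the macrophages of the same HDM+APM library. At the other end, dendritic cells of HDM held 2961 Fabp5 UMIs per 100 of Fabp4 (1855 to 5035), against 346 in the macrophages of that library. The interval of these dendritic cells overlapped that of Macrophage 4 of control. B cells 2 of HDM+APM held 97.3 (74.1 to 128) and T cells of HDM+APM 133 (76.1 to 237), values between those of that library's macrophages and of its classical monocytes. T cells of HDM held 778 (387 to 1771), from 70 Fabp5 and 9 Fabp4 UMIs.

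**Figure D2:**
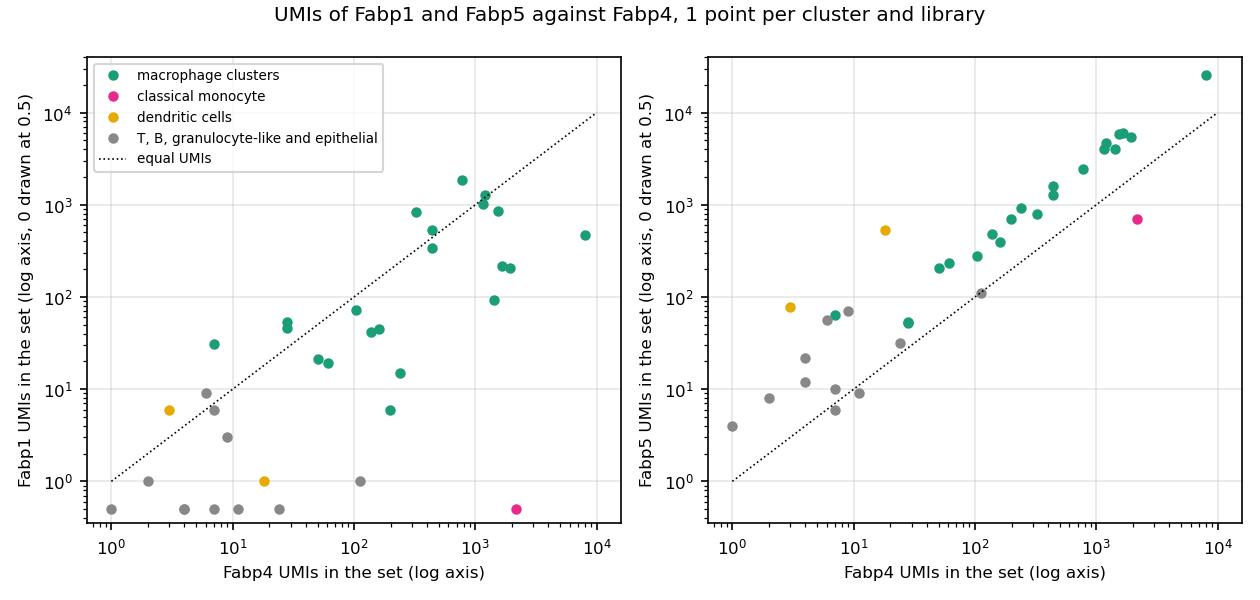
UMIs of Fabp1 (left) and Fabp5 (right) against UMIs of Fabp4, 1 point per cluster and library of at least 20 cells, on log axes with 0 drawn at 0.5; the dotted line marks equal UMIs. Fabp5 lies at 243 to 412 per 100 Fabp4 in the macrophage sets of at least 50 cells of APM and control, while Fabp1 spreads from 5.80 to 256. The smaller macrophage sets of these libraries lie outside that Fabp5 range, at 186, 193 and 900.

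Single cells of a cluster also varied in the 3 genes. At 1000 UMIs per cell, the variance of UMIs over their mean, which is 1 for pure counting noise, was 0.90 to 2.01 for Fabp1 over the macrophage sets with a UMI. It was highest, 2.01, in Macrophage 5 of APM. For Fabp4 it reached 3.87 in Macrophage 8 of HDM, and for Fabp5 3.93 in Macrophage 8 of HDM+APM and 3.71 in Macrophage 8 of HDM. Macrophage 8 of the HDM-treated mice thus held the sets in which single cells differed most in Fabp5. The most Fabp5-rich cell of that cluster held 16 of its 1000 UMIs as Fabp5 in HDM+APM, while the median cell held 1. In 11 sets with at least 20 cells of each kind, Fabp4 was lower in Fabp1-positive than in Fabp1-negative cells of the same cluster in 11 of 11, at 0.69 to 0.99 times. Fabp5 was lower in 10 of 11, with ratios of 0.78 to 1.00 over the 11 sets. In Macrophage 5 of APM, for example, Fabp1-positive cells averaged 1.66 Fabp5 UMIs, against 2.14 in Fabp1-negative cells. Each cell here holds the same total of 1000 UMIs, of which at most 9 were Fabp1. A UMI given to Fabp1 is taken from the rest, and the part of this in the ratios was not tested. Cells of 1 library are not replicates.

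The comparison of APM with control asks what the dust alone left in the resident macrophages. The class of Macrophages 1 to 7, 9 and 10 held 3492 cells in APM and 3775 in control. Fabp1 stood at 439 CPM in APM and 220.1 CPM in control, a ratio of 1.99 (1.91 to 2.08). Fabp4 stood at 586 CPM in APM and 872 CPM in control, a ratio of 0.67 (0.65 to 0.69). Fabp5 stood at 1737 CPM in APM and 2979 CPM in control, a ratio of 0.58 (0.57 to 0.59). Fabp1 was thus higher and the other two genes lower in APM. Fabp1 and Fabp5 were past 1.5-fold, and Fabp4 was just short of it at 1.49-fold lower. Of all genes with at least 20 UMIs, 10.8% were past 1.5-fold in this comparison. Among them the ratios of Fabp1, Fabp4 and Fabp5 stood at percentiles 99.8, 0.57 and 0.16.

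The makeup of the class by cluster differed between these libraries along the order of the genes. Macrophages 4 and 6 were richest in Fabp1 and poor in Fabp4 and Fabp5 with the libraries pooled. They made up 49.2% of the class in APM and 1.67% in control. They held 57.3% of the Fabp1 UMIs of the class in APM, against 2.59% in control. Macrophage 3, richest in Fabp4 and Fabp5, made up 5.13% of the class in APM and 24.0% in control, and held 21.8% of its Fabp5 UMIs in APM against 57.8% in control. Macrophage 1 made up 2.69% of the class in APM and 36.0% in control. When the clusters with at least 20 cells in both libraries were given equal weight, the ratio of APM to control was 1.09 for Fabp1, 1.03 for Fabp4 and 0.86 for Fabp5. Since 1 library stands for each group, a cluster that lies mostly in 1 library cannot be told apart from that library.

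Within clusters, the ratios differed from gene to gene and from cluster to cluster. Fabp1 was higher in APM in Macrophage 5, at 487 CPM against 311 CPM in control (ratio 1.56, 1.43 to 1.71), and in Macrophage 7, at 442 CPM against 319 CPM in control (1.39, 1.21 to 1.60). Its ratio was 0.86 in Macrophage 1, 1.00 in Macrophage 2, 1.15 in Macrophage 3, 1.05 in Macrophage 8 and 0.60 in Macrophage 9, each with an interval that holds 1. Fabp4 was higher in APM in Macrophage 1 (1.31, 1.06 to 1.60), Macrophage 2 (1.23, 1.15 to 1.31) and Macrophage 8 (1.57, 1.14 to 2.204), and lower in Macrophage 9 (0.59, 0.43 to 0.81), where the APM level overlapped that of the T cells. Fabp4 was thus lower in APM over the class and higher within Macrophages 1 and 2 of that class. Macrophage 8 lies outside the class. Fabp5 was below 1 in 7 of 7 clusters, from 0.65 in Macrophage 9 and 0.71 in Macrophage 7 to 0.95 in Macrophage 8, and in 5 of them the interval lay below 1. The share of all genes past 1.5-fold within a cluster was 35.4% in Macrophage 1, 16.2% in Macrophage 2, 22.2% in Macrophage 3, 17.9% in Macrophage 5, 17.7% in Macrophage 7, 26.6% in Macrophage 8 and 25.7% in Macrophage 9. Against these shares, Fabp1 was past 1.5-fold in 2 of 7 clusters, Fabp4 in 2 of 7 and Fabp5 in 1 of 7.

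Of the 15 alveolar macrophage markers, none was past 1.5-fold between APM and control over the class, and their sums stood at 16598 CPM in APM and 17039 CPM in control. Red blood cell markers moved with the comparison, with all 5 higher in APM and sums of 5140 CPM in APM and 247 CPM in control. So did epithelial markers, with 5 of the 6 that were measured higher in APM and sums of 1762 CPM in APM and 433 CPM in control. Their part in the Fabp ratios was not tested. Plin1, the adipocyte marker that the matrix lists, stood at 0.47 CPM in APM and 0.54 CPM in control.

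**Figure D3:**
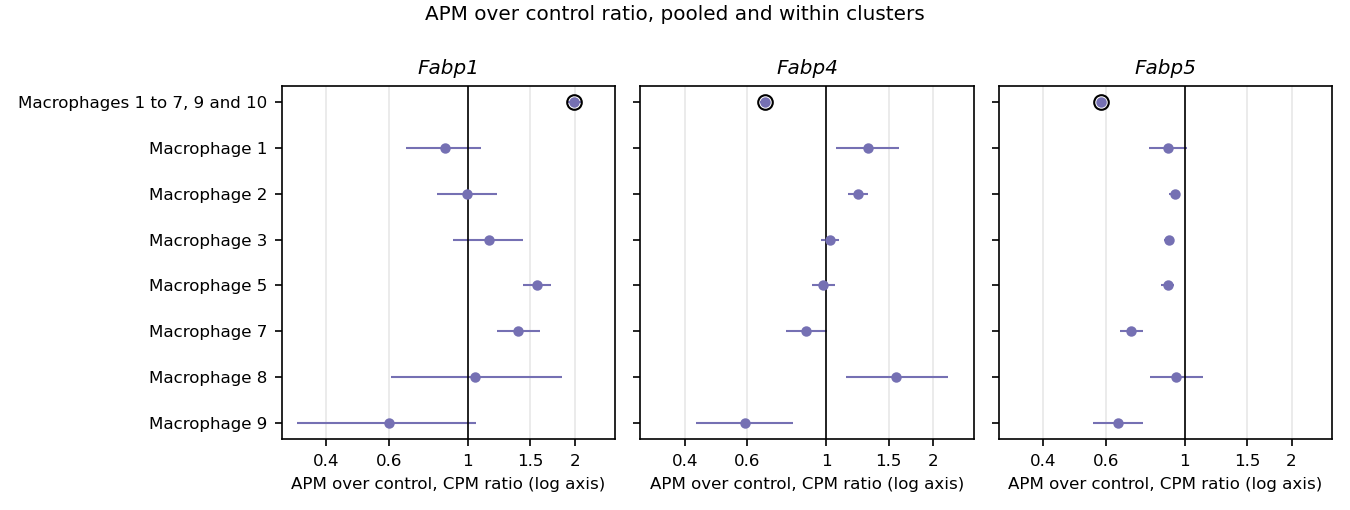
Ratio of CPM in APM to CPM in control (log axis) with 95% counting intervals, for Macrophages 1 to 7, 9 and 10 together (ringed point) and within each cluster of at least 50 cells in both libraries. The class ratio of Fabp1, 1.99, lies above all 7 within-cluster ratios, and that of Fabp5, 0.58, lies below all 7.

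The comparison of HDM with control asks what the allergen left in the macrophages of mice that breathed filtered air, and it shares its control library with the comparison above. Macrophages 1 to 7, 9 and 10 held only 60 cells in HDM, against 3775 in control. Fabp1 stood at 137 CPM in HDM, from 36 UMIs, and 220.1 CPM in control, a ratio of 0.62 (0.44 to 0.86). Fabp4 stood at 739 CPM in HDM and 872 CPM in control, a ratio of 0.85 (0.73 to 0.98). Fabp5 stood at 2221 CPM in HDM and 2979 CPM in control, a ratio of 0.75 (0.69 to 0.81). Over the class, each of the 3 genes was lower in HDM. Fabp1 was past 1.5-fold, in a comparison in which 46.4% of all genes were. Macrophages 2 and 3 made up 26.7% of the class in HDM and 39.0% in control. The part of this makeup was not tested. Clusters went both ways, though those of HDM held too few cells for a level. Fabp4 and Fabp5 stood at 765 and 2558 CPM in Macrophage 5 of HDM (17 cells), against 559.6 and 2142 CPM in control. In Macrophage 3 of HDM (9 cells) they stood at 1261 and 4142 CPM, against 1498 and 4799 CPM in control. Markers moved with the comparison. The 15 alveolar macrophage markers summed to 43565 CPM in HDM and 17039 CPM in control, with 5 higher and 2 lower past 1.5-fold in HDM and none at 0. Red blood cell markers summed to 2049 CPM in HDM and 247 CPM in control, and the 9 monocyte markers to 404 CPM in HDM and 157 CPM in control. T cell markers summed to 99.04 CPM in HDM and 1.67 CPM in control, and B cell markers to 41.9 CPM in HDM and 0.067 CPM in control, with Cd8a and Pax5 at 0 in HDM. Their part in the Fabp ratios was not tested. With all 10 macrophage clusters as 1 class the Fabp1 ratio was 0.32. The 46 cells of this class in HDM+APM were too few for a ratio; they held 82.8 CPM of Fabp1, 746 CPM of Fabp4 and 2454 CPM of Fabp5.

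Macrophage 8 is the macrophage cluster with enough cells in all 4 libraries, 109 in HDM+APM, 139 in HDM, 205 in APM and 107 in control. Fabp1 stood at 12.2 CPM in HDM+APM, 32.7 in HDM, 156 in APM and 149.5 in control, from 6, 15, 45 and 21 UMIs. Both libraries of HDM-treated mice lay below both others, with no overlap of their intervals, although the APM level lay inside the interval of the T cells of that library (35.2 to 209 CPM). The control level likewise lay inside the interval of the T cells of its library (10.4 to 311 CPM), which rests on 2 UMIs in 13 cells. Fabp4 stood at 399 CPM in HDM+APM, 518 in HDM, 559 in APM and 356 in control. Fabp5 stood at 1433 CPM in HDM+APM, 1981 in HDM, 1386 in APM and 1467 in control, and HDM lay above the others. Median depth in the cluster was 4849 UMIs in HDM+APM, 3056 in HDM, 1182 in APM and 1167 in control. Thinned to 1000 UMIs, 0, 1.65, 10.6 and 18.2% of its cells were positive for Fabp1, in that order, after 24, 18, 73 and 41 cells with fewer UMIs were left out.

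In Macrophage 8 of HDM over control, Fabp1 was 4.58-fold lower (ratio 0.22, 0.10 to 0.44), against a control level not separable from that of 13 T cells. Fabp4 was 1.46 times (1.07 to 2.02) and Fabp5 1.35 times (1.16 to 1.58) the control level. Of all genes, 44.0% were past 1.5-fold in this comparison, as was 1 of the 3, Fabp1. Thinned to 1000 UMIs, its ratio was 0.084, from a mean of only 0.0165 Fabp1 UMIs per cell over 121 HDM cells. In HDM+APM over HDM, Fabp1 had a ratio of 0.37 with an interval that holds 1 (0.12 to 1.02). Fabp4 stood at 0.77 (0.63 to 0.93) and Fabp5 at 0.72 (0.65 to 0.80) of the HDM level, within 1.5-fold, where 27.1% of all genes were past it. In HDM+APM over APM, Fabp1 was 12.9-fold lower (ratio 0.078, 0.027 to 0.18) against an APM level not separable from that of T cells, Fabp4 stood at 0.71 (0.58 to 0.88) and Fabp5 at 1.03 (0.91 to 1.17). Fabp1 was the only one of the 3 past 1.5-fold there, against 35.2% of all genes. Thinning brought the Fabp4 ratio of that comparison to 0.47. By summed UMIs, Fabp4 was thus higher with HDM in mice that breathed filtered air and lower with HDM in mice that breathed APM, a difference that was not tested. The share of Fabp4-positive cells was not higher in HDM than in control, at 32.4% in HDM and 32.7% in control, or 23.1% in HDM and 30.3% in control after thinning. The mean of each cell's CPM was 475 in HDM and 420 in control, a ratio of 1.13, and the thinned ratio was 1.11.

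Other markers moved with these ratios in Macrophage 8. The 9 monocyte markers summed to 1820 CPM in HDM+APM, 1363 in HDM, 320 in APM and 356 in control, with Ly6c2 and Plac8 at 0 in APM and control and Vcan at 0 in HDM and control. The 15 alveolar macrophage markers, none of them at 0, summed to 39339 CPM in HDM+APM, 42118 in HDM, 11795 in APM and 13049 in control. Singly they went both ways. In HDM over control, 6 of 13 measured were past 1.5-fold higher and 4 lower, where 44.0% of all genes were past it. In HDM+APM over APM, 7 of 15 were higher and 5 lower, against 35.2% of all genes. Red blood cell markers summed to 42.6 CPM in HDM+APM, 6195 in HDM, 21530.0 in APM and 377 in control. Epithelial markers summed to 1451 CPM in HDM+APM, 348 in HDM, 2053 in APM and 655 in control. The 10 cavity macrophage markers, none at 0 in HDM+APM, summed to 314 CPM in HDM+APM, 8.71 in HDM, 6.95 in APM and 14.2 in control. B cell markers summed to 227 CPM in HDM+APM and 39.2 in HDM, and all 6 were at 0 in APM and control. The part of these in the Fabp ratios was not tested. With all 10 macrophage clusters as 1 class, the HDM over control ratio was 0.69 for Fabp4 and 0.70 for Fabp5, and the APM over control ratio 1.96 for Fabp1, 0.68 for Fabp4 and 0.58 for Fabp5.

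**Figure D4:**
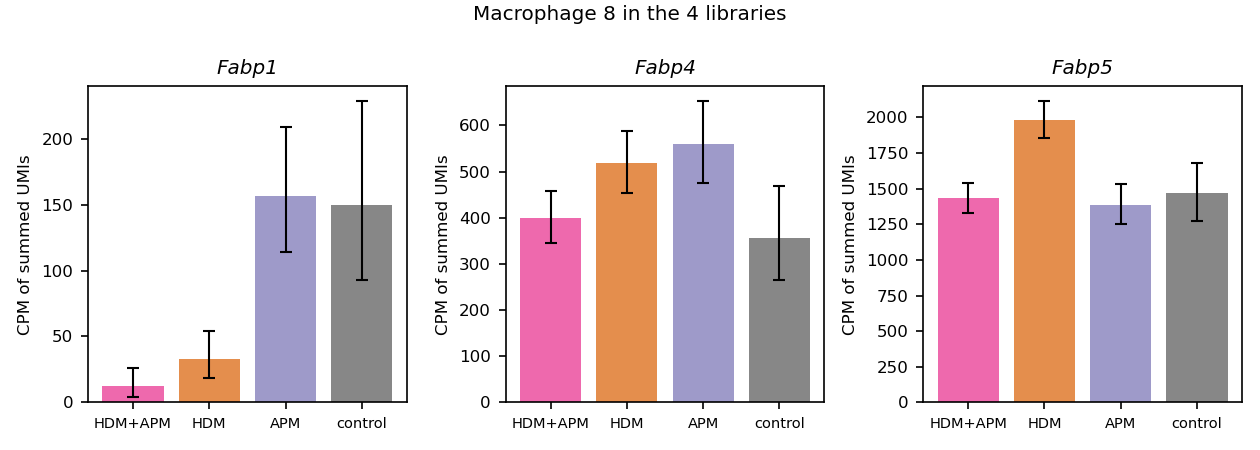
CPM of Fabp1, Fabp4 and Fabp5 in Macrophage 8 of each library, with 95% counting intervals as error bars; each panel has its own axis from 0. Fabp1 stands at 12.2 and 32.7 CPM in HDM+APM and HDM, against 156 and 149.5 CPM in APM and control, while Fabp5 is highest in HDM at 1981 CPM.

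With the libraries pooled, T cells and B cells held low levels of the 3 genes. The 13 T cells of control were too few for a level, but 11 of them were positive for Fabp5, with 19 UMIs. In T cells, Fabp4 stood at 82.0 CPM in HDM+APM (24 UMIs) and 11.9 CPM in HDM (9 UMIs), a ratio of 6.90 (3.10 to 16.9). Fabp5 stood at 109 CPM in HDM+APM and 92.4 CPM in HDM, a ratio of 1.18 (0.75 to 1.82). Over the whole libraries Fabp4 itself stood at 524.5 CPM in HDM+APM and 243 CPM in HDM, and summed alveolar macrophage markers in T cells at 1660.4 CPM in HDM+APM and 1142 CPM in HDM. In the same T cells, monocyte-derived or interstitial macrophage markers summed to 417 CPM in HDM+APM and 77.9 CPM in HDM, and cavity macrophage markers, which the cells named classical monocyte also carried, to 270 CPM in HDM+APM and 31.7 CPM in HDM. The part of these markers and of free RNA in the T cell values was not tested. In B cells, Fabp4 stood at 49.9 CPM in HDM+APM and 19.3 CPM in HDM, a ratio of 2.59 with an interval that holds 1 (0.98 to 9.65). Different clusters held most of these cells, with 404 of 449 in B cells 2 in HDM+APM and 119 of 128 in B cells 1 in HDM. Within B cells 1, Fabp4 stood at 80.3 CPM in HDM+APM (7 UMIs, 32.3 to 165) and 23.004 CPM in HDM (4 UMIs, 6.27 to 58.9), with overlapping intervals.

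Few other members of the family had UMIs. Fabp7, the brain type, held 184 UMIs over all cells, 169 of them in the cells named classical monocyte, where 36.0% of cells were positive at 103 CPM (88.1 to 120). Its next highest level was 3.47 CPM, from 1 UMI in dendritic cells. Fabp7 and Fabp4 were thus both present in those cells while Fabp1 had no UMI. Fabp3, the heart type, held 34 UMIs over all cells and Fabp12 held 7. Among the retinoid carriers of the family, Crabp2 held 10 UMIs, 8 of them in T cells. Fabp2, Fabp6, Fabp9, Pmp2, Crabp1, Rbp2, Rbp5 and Rbp7 were not analysed here.

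Genes of fatty acid handling around the carriers were counted in 4 lists. Over Macrophages 1 to 7, 9 and 10 in APM over control, 1 of 12 measured uptake and activation genes was past 1.5-fold higher and 0 lower, and the median of their log2 ratios was -0.03, against 0.01 for all genes, of which 10.8% were past 1.5-fold. For 12 lipid droplet and lipolysis genes the counts were 1 higher and 1 lower with a median of -0.11. For 22 fatty acid oxidation genes they were 1 and 0 with a median of 0.15, and for 19 nuclear receptor genes and targets 2 and 3 with a median of 0.05. Among these genes, Cebpb, a transcription factor of fat cell and myeloid differentiation, stood at 1772 CPM in APM and 722 CPM in control, a ratio of 2.45 (2.40 to 2.51). Lipa, the lysosomal acid lipase, was 1.62-fold lower in APM, Scd2, a stearoyl-CoA desaturase, 1.61-fold lower and Ppard, the receptor FABP5 can deliver to, 1.61-fold lower. Dgat2, which makes triglyceride, stood at 1.83 times and Acsl3, which activates fatty acids, at 2.03 times the control level. The oxidation genes Ehhadh, Acaa1b and Etfb stood at 1.58, 1.44 and 1.34 times.

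In HDM over control the same class gave 2 higher and 2 lower of 12 uptake genes, 2 and 1 of 12 droplet genes, 1 and 5 of 22 oxidation genes and 6 and 0 of 19 nuclear receptor genes and targets. Their medians were 0.10, -0.10, 0.02 and 0.12, against 0.04 for all genes, of which 46.4% were past 1.5-fold, a share that none of the 4 lists exceeded. Cidec, a lipid droplet protein, stood at 49.5 CPM in HDM and 130 CPM in control, 2.62-fold lower, while Cd36, a fatty acid scavenger receptor, stood at 1.52 times, Scd1 at 2.71 times, Cebpb at 1.97 times and Pparg at 2.04 times the control level (1.25 to 3.15). In Macrophage 8 of HDM over control, 2 of 5 uptake genes were past 1.5-fold higher and 0 lower, against 2 and 1 of 7 droplet genes, 2 and 3 of 13 oxidation genes and 3 and 1 of 10 nuclear receptor genes and targets, where 44.0% of all genes were past it. In APM over control, with 26.6% of all genes past it, the counts were 1 and 1 of 5, 2 and 1 of 7, 2 and 0 of 11 and 2 and 0 of 7 for the same 4 lists. In HDM+APM over HDM, with 27.1% of all genes past it, they were 0 and 2 of 8, 0 and 0 of 7, 1 and 2 of 16 and 2 and 2 of 13, and in HDM+APM over APM, with 35.2%, they were 1 and 0 of 6, 0 and 3 of 8, 1 and 4 of 15 and 2 and 2 of 12. In that cluster, Cd36 stood at 1.76 times the control level in HDM, and in HDM+APM it was 1.67-fold lower than in HDM. Cebpb followed the same pattern, at 1.80 times the control level in HDM and 2.50-fold lower in HDM+APM than in HDM. Apoe, a lipid carrier of macrophages, was 1.99-fold lower in HDM than in control, 2.75 times the control level in APM and 4.16-fold lower in HDM+APM than in APM.

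The genes whose pattern over the 17 clusters was most like each carrier were named from 4904 genes by Pearson's r. For Fabp1 they were Cidec (r = 0.99), Krt79, a keratin of alveolar macrophages (0.98), C530008M17Rik, Cib2 and Gal. Cidec stood at 242 CPM and Krt79 at 423 CPM in Macrophage 6, where Fabp1 was highest, against 63.4 and 85.4 CPM in Macrophage 3. For Fabp4 they were Dram2 (0.92), Itgb2, an integrin chain of leukocytes, Fam63a, Hacd4 and Grn, the lysosomal progranulin gene (0.90). Itgb2, Hacd4 and Grn had their highest level in the cells named classical monocyte. For Fabp5 they were Ccdc88a (0.94), Anxa4, Tmem65, Nampt and Gabarapl1 (0.89), and Nampt was highest in dendritic cells. Over the 10 macrophage clusters alone, Fabp4 and Fabp5 were each among the 5 genes most like the other, and of the 5 named above 1 remained for Fabp1 and 0 for Fabp4 and Fabp5.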

How the data were processed

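Lavage cells of 4 mouse groups were profiled with the 10x Genomics 3' v2 kit, per the labels' protocols. The authors deposited raw UMI counts, 33643423 in all over 13838 genes and 9925 cells, and a table that names the library and the cluster of each cell. Per the submitters' processing notes, Cell Ranger 2.2.0, Seurat 2.3.4 and mm10 were used. The filters on cells and the handling of doublets are not given in the sources used here. No caller was run, and no column of per-sample values was left unused. The 23 cells with a coarse type of epithelial and a refined macrophage cluster were left out.

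The counts were summed per cluster and library with Python 3.11.15, numpy 2.4.6, pandas 2.3.3 and scipy 1.17.1, and drawn with matplotlib 3.10.9. Levels have exact Poisson, shares exact Clopper-Pearson and ratios exact conditional binomial intervals at 95%, for counting error only. Levels need at least 20 cells and ratios 50 cells in both libraries. Shares at equal depth used cells thinned to 1000 UMIs. Macrophage 8 was kept apart from Macrophages 1 to 7, 9 and 10, as it holds the most monocyte-derived macrophage markers of these clusters (3015 CPM, against at most 1653). The 4 comparisons were HDM over control, APM over control, HDM+APM over HDM and HDM+APM over APM. In each, the background is the share of genes with at least 20 UMIs whose ratio is 1.5-fold or more either way. With 1 library per group nothing was tested. The members and lists were chosen with earlier results of these data known. Named beside the members are the other family members in the matrix, the 5 genes with the highest r with each member among genes of at least 200 UMIs and 50 CPM in 1 cluster, and, per list and comparison, up to 3 genes of at least 50 UMIs with the largest absolute log2 ratio. Some genes of these lists are not reported here.

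Counts were simulated with Poisson error, which the intervals assume, so their coverage says nothing about spread between cells or mice. Every changed gene was set to the same fold, up or down. For APM over control in Macrophages 1 to 7, 9 and 10, with 10877 genes, 97.5% of changed genes and 3.66% of the others were past 1.5-fold. Of the intervals, 95.5% held the true ratio. For Macrophage 8 of HDM over control, with 3945 genes, the values were 85.8, 23.3 and 97.2%. The alternatives were cell means, other scaling, depth limits, thinning, equal cluster shares, free RNA subtraction, all macrophages as 1 class and, chosen after seeing the data, keeping the 23 cells and leaving out cells of shared barcodes.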

Additional observations from a re-analysis of the deposited data

Results flagged for a closer look

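By summed UMIs, Fabp4 in Macrophage 8 moved in opposite directions with HDM in the air and dust backgrounds. Its ratio was 1.46 for HDM over control and 0.71 for HDM+APM over APM, and each interval, for counting error only, excluded 1. In HDM the variance of its UMIs over their mean was 3.87 among thinned cells, a spread that such an interval does not cover. The mean of each cell's CPM was 475 in HDM and 420 in control. The share of Fabp4-positive cells did not follow the first ratio, at 32.4% in HDM and 32.7% in control. The difference was not tested, since each group is 1 pooled library. Fabp4 also differed between clusters in APM over control, with a ratio of 1.57 in Macrophage 8 and 0.59 in Macrophage 9, on either side of 1 beyond their intervals. That difference was not tested either, and the Macrophage 9 level of APM overlapped that of T cells of the same library. The Macrophage 8 values share libraries, so they are not independent of each other.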

How the results depend on the processing

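The 18 main ratios were recomputed under 145 alternatives, of which 118 stayed within the counting interval, 23 moved beyond it and 4 changed direction. With all 10 macrophage clusters as 1 class, HDM over control was 0.322 for Fabp1, 0.690 for Fabp4 and 0.698 for Fabp5, APM over control was 1.96, 0.675 and 0.583, and HDM+APM over HDM was 0.860 for Fabp5. The values of Fabp4 (HDM and APM over control) and Fabp5 (HDM over control) thus reversed those of Macrophage 8. That cluster held 139 of the 199 macrophages of HDM, but 205 of the 3697 of APM and 107 of the 3882 of control. With equal cluster shares, APM over control in Macrophages 1 to 7, 9 and 10 was 1.09 for Fabp1, 1.03 for Fabp4, a reversal, and 0.861 for Fabp5. No such value could be had for HDM, where no cluster of that class had 20 cells. As a mean of each cell's CPM, APM over control was 1.86, 0.752 and 0.615 for Fabp1, Fabp4 and Fabp5, Fabp5 in HDM over control was 0.685, and in Macrophage 8 it was 1.14 there. In HDM+APM over HDM of Macrophage 8 the mean gave 0.973 for Fabp4 and 0.851 for Fabp5. Median-of-ratios scaling gave 0.686 for Fabp5 in HDM over control. Thinned to 1000 UMIs, Fabp4 in HDM over control was 0.648, and APM over control was 0.757 for Fabp4 and 0.614 for Fabp5. In Macrophage 8, thinning gave 0.0839 for Fabp1 and 1.15 for Fabp5 in HDM over control, 0.800 for Fabp5 in HDM+APM over HDM, and 0.474 for Fabp4 and 0.873 for Fabp5 in HDM+APM over APM. Fabp1 had no UMI left there in HDM+APM and gave no ratio. The cause of these moves was not tested. Keeping the 23 cells, leaving out cells of shared barcodes, both chosen after seeing the data, cells of at least 1000 UMIs and free RNA subtraction moved none of the 18. The share of all genes past 1.5-fold depended on the UMI minimum: in APM over control for Macrophages 1 to 7, 9 and 10 it was 10.8%, but 21.2% with no minimum and 6.11% at 100 UMIs. Of the 12 shares, 10 moved by over 1.5 times with no minimum and 9 at 100 UMIs. Other values gave 246 alternatives counted as unchanged, 107 as moved and 0 as reversed. These include the shares of all genes above and the lists of most like genes, which have no interval. No paired analysis was possible because each group is 1 pooled library. For the same reason no library could be left out, and no value here measures the spread between mice.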
